A study of Mus musculus with 12 samples.

Results

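The open chromatin of 8 loci of the epiblast pluripotency programme was followed across 6 ATAC-seq peak lists from mouse embryos at embryonic day 7.5. The genes were Pou5f1, Nanog, Pou3f1, Dnmt3b, Utf1, Sall4, Esrrb and Tfap2c. A peak belonged to a locus when the protein-coding gene nearest to its midpoint was 1 of the 8 and lay within 100 kb. Peaks that overlapped across lists by at least 1 bp were joined, which gave 65 open regions at the 8 loci, of 87329 assigned to any protein-coding gene and 99096 in all.

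ATAC-seq marks open chromatin by the insertion of sequencing adapters by a transposase. The study asked what an alpha helix of the pioneer factor FoxA2 does to chromatin in the embryo, and compared 2 alleles. All embryos were homozygous for FoxA2 fused to the red fluorescent protein tagRFP, on a mixed C57Bl6/J x CD-1 background. In the FoxA2-deltaHx-tagRFP embryos (dHx) the fusion lacked 10 amino acids of the helix, and in the FoxA2-WT-tagRFP embryos (WT) it was otherwise intact. The WT cells were therefore also tagged. About 10 embryos of both sexes were dissociated together after the extraembryonic part had been removed, and cells were sorted on tagRFP into Negative, Middle (up to the signal of heterozygous cells) and High (above it). Libraries were made from 2000 to 5000 cells. The 12 samples formed 6 groups of 2, and the reads of each group had been pooled into 1 peak list, so no comparison had replicates and none was tested.

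The pluripotent epiblast is the tissue from which all germ layers of the embryo arise. Its cells are held undifferentiated by a network of transcription factors around OCT4 (Pou5f1), SOX2 and NANOG, and leave that state as they pass through the primitive streak or become neural plate. FoxA2 marks the anterior streak, node, notochord and endoderm, so cells with FoxA2 are among those leaving the epiblast.

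The lists held between 37129 and 50424 peaks. Read totals were not used here. A Poisson background fitted to the authors' peak scores stood in for relative depth, in mean pileup per base. It was 1.57 in dHx Negative, 0.786 in dHx Middle and 0.476 in dHx High, and 1.08 in WT Negative, 1.497 in WT Middle and 0.880 in WT High. A missing peak means that the signal did not reach the threshold of that list, which a shallower list reaches less easily. Peaks near 10 endoderm, node and notochord genes numbered 49 in dHx High against 39 in dHx Negative, and 56 in WT High against 28 in WT Negative. At Foxa2 itself there were 16 peaks in dHx High against 15 in dHx Negative, and 16 in WT High against 11 in WT Negative. The Middle lists held 52 peaks in dHx and 49 in WT near the 10 genes, and 20 in dHx and 19 in WT at Foxa2. Peak number at Foxa2 was thus highest in Middle in both genotypes.

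The promoter windows of 4 loci are shown because each was covered in a different set of lists. They are RefSeq sequences on the plus strand of GRCm38.p6 (mm10), from 250 bases before the annotated start to 50 after it, and capitals mark matches to searched motifs. The Nanog window (chr6:122707239-122707538) overlapped a peak in both Negative and both High lists and in neither Middle list. The Utf1 window (chr7:139943606-139943905) overlapped a peak in the Negative and Middle lists of both genotypes and in neither High list. The Dnmt3b window (chr2:153649199-153649498) overlapped a peak in every list except WT Middle. The Pou5f1 window (chr17:35505782-35506081) overlapped none.
Nanog: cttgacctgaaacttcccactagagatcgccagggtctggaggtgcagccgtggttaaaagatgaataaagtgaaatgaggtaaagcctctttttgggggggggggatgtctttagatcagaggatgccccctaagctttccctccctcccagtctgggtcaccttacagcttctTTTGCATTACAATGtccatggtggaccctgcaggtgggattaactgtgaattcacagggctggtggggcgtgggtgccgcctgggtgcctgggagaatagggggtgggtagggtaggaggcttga
Utf1: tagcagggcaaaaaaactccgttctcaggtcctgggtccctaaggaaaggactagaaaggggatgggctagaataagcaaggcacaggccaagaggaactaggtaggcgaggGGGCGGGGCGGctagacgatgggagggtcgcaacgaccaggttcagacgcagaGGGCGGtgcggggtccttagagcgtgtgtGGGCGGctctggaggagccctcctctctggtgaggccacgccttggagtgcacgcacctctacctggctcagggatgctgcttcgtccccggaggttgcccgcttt
Dnmt3b: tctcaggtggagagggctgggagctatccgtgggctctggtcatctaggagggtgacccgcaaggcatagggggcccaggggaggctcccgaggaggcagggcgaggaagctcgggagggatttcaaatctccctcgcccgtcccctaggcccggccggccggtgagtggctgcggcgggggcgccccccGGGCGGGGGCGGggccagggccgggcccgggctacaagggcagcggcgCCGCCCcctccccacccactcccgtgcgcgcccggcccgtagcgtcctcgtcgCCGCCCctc
Pou5f1: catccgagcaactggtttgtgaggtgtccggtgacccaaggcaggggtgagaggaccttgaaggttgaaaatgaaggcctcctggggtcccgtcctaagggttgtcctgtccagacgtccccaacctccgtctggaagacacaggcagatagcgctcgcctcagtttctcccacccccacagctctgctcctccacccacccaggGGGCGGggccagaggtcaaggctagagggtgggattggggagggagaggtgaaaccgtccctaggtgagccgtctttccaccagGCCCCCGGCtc

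Windows were present for 5 of the 8 genes. Among all 32817 RefSeq promoter windows, a peak overlapped 38.6% in dHx Negative, 34.9% in dHx Middle, 38.9% in dHx High, 35.1% in WT Negative, 34.3% in WT Middle and 37.7% in WT High, and 25.3% were overlapped in all 6 lists. The capitals in the Nanog window are TTTGCATTACAATG, the paired octamer and SOX element bound by OCT4 and SOX2 in embryonic stem cells, which starts at base 176 of the window. The search pattern, TTTGCAT followed after any base by ACAATG, was written after the window had been read. It matched 2 of the 32817 windows on either strand, those of the 2 overlapping Nanog starts. The SP/KLF box GGGCGG, present in 35.6% of windows, matched 4 times in the Utf1 window, 4 times in the Dnmt3b window and once in the Pou5f1 window, where GCCNNNGGC (AP-2, 16.6% of windows) also matched once. The 4 boxes of Utf1 included 2 that overlapped by a base. The forkhead words TGTTTAC (3.65% of windows) and TGTTTGC (5.06%) and the octamer ATTTGCAT (1.74%) were not in any of these 4 windows. The Dnmt3b window had a G+C content of 76.0% and 30 CpG sites, the Utf1 window 62.0% and 17, the Pou5f1 window 62.7% and 11, and the Nanog window 54.3% and 4, beside a median of 52.7% and 7 over all windows.

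The 8 loci together held 45 peaks in dHx Negative, 26 in dHx Middle and 23 in dHx High, and 34 in WT Negative, 27 in WT Middle and 29 in WT High. In both genotypes the Negative list held the most peaks near these genes. Tfap2c alone gave 10 of the 45 dHx Negative and 6 of the 34 WT Negative peaks, against 2 in each other list. In WT it thus held most of the difference between Negative (34) and the other lists (27 in Middle and 29 in High). The whole lists held 50424 peaks in dHx Negative, 39121 in dHx Middle and 37129 in dHx High, and 39569 in WT Negative, 48761 in WT Middle and 45689 in WT High, so dHx Negative was the longest list and WT Negative the shortest of the WT lists. Per 10000 peaks of a list, the 8 loci held 8.92 in dHx Negative, 6.65 in dHx Middle and 6.19 in dHx High, and 8.59 in WT Negative, 5.54 in WT Middle and 6.35 in WT High. Every locus had a peak in each Negative and Middle list, and Pou5f1 had none in either High list. In a bulk sort, fewer cells with an open region and less opening per cell cannot be told apart. Regions open in both Negative lists and in neither High list numbered 12 of 65 (18.5%), at 7 of the 8 loci, and the background over all assigned regions was 5.11%. The opposite pattern, open in both High lists and in neither Negative list, was found in 3 of 65 regions (4.62%), at Sall4 and Esrrb, beside a background of 5.35%. Tfap2c alone gave 4 of the 12 Negative regions, and without it 8 of 56 remained.

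**Figure D1:**
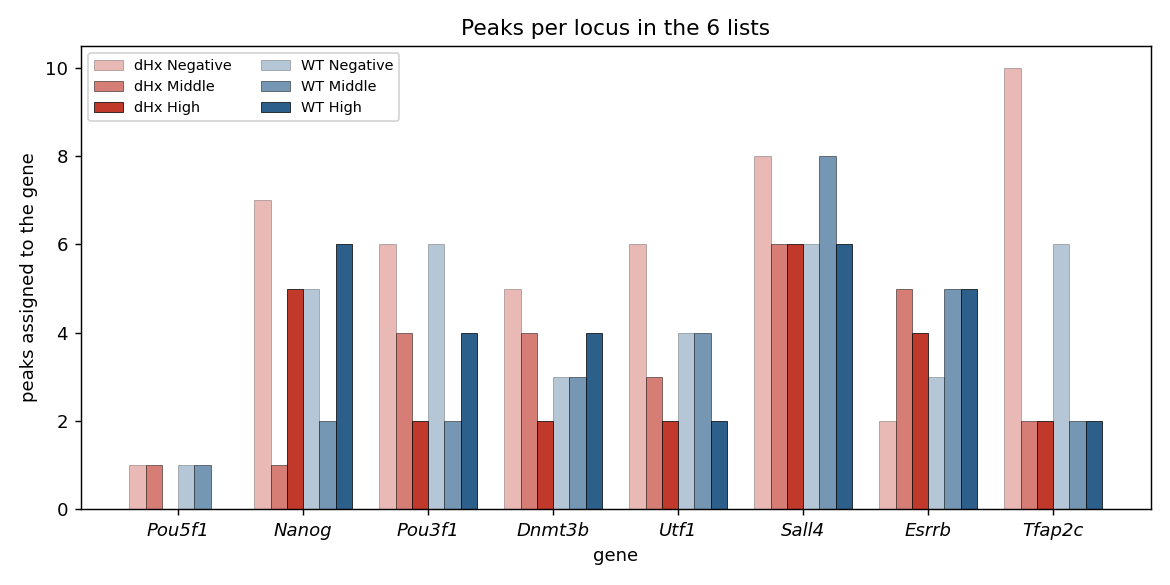
Number of peaks assigned to each of the 8 genes (bars, y axis) in the 6 peak lists, dHx in red and WT in blue, from Negative (pale) to High (dark), with 1 list per group and no error. Tfap2c had 10 peaks in dHx Negative and 6 in WT Negative against 2 in each other list, and Nanog had 1 in dHx Middle and 2 in WT Middle against 5 to 7 elsewhere.

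Regions open in all 6 lists numbered 11 of 65 (16.9%), near the background of 14.8%, and 25 (38.5%) were open in a single list, beside 43.9%. The shared regions had a median width of 940 bp and the regions of a single list 284 bp, and over all assigned regions these medians were 1044 and 289 bp. Of the 65 regions 24 overlapped their gene, 5 ended within 1 kb of it and 36 lay farther away. The farthest was a Tfap2c region at 85.6 kb, and the nearest one past the limit was also closest to Tfap2c, at 103.0 kb. Both were open in 1 Negative list each, the inner in dHx and the outer in WT.

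**Figure D2:**
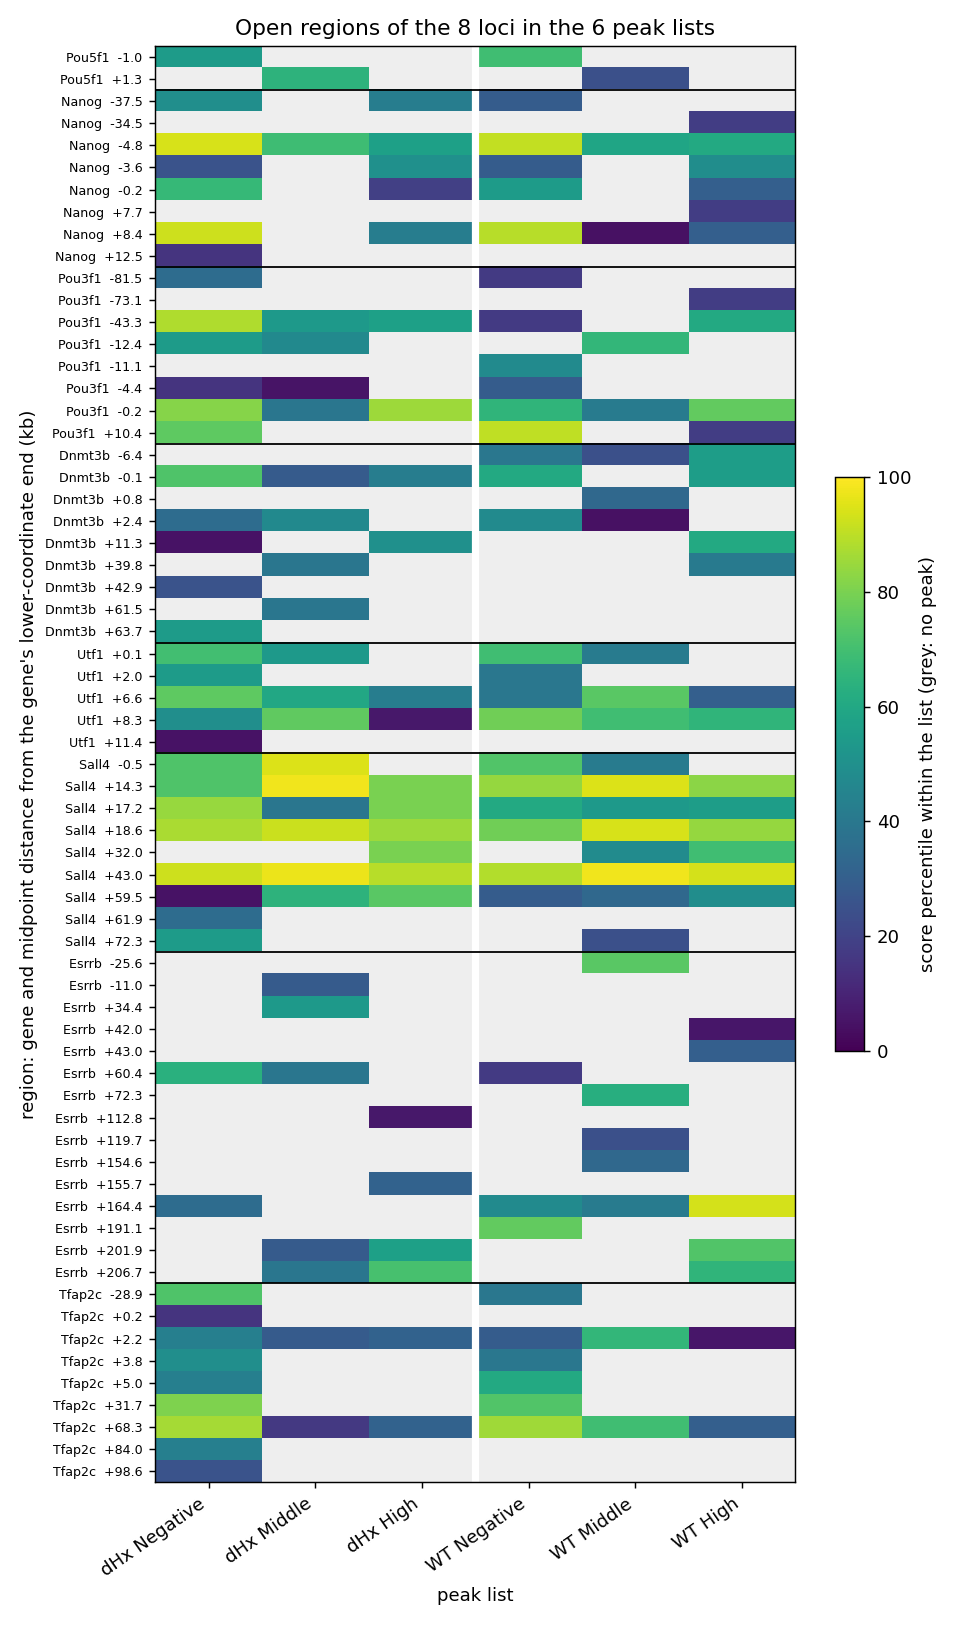
Open regions of the 8 loci (rows, with the distance in kb of the midpoint from the lower-coordinate end of the gene) in the 6 peak lists (columns), coloured by the percentile of the score within its own list and grey where the list had no peak. Sall4 held 5 of the 11 regions filled in all columns, while 11 of the 15 Esrrb rows are filled in a single column.

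Pou5f1, which encodes OCT4, had 2 regions and the sparsest pattern. Its gene (chr17:35506032-35510777) lies among close neighbours, and 20 regions of any gene lay within 100 kb. Region chr17:35504771-35505391, 0.951 kb upstream, was open in dHx Negative and WT Negative and in no other list. It stood at percentile 54.8 of the scores in dHx Negative and at 69.3 in WT Negative, where the percentile ranks a peak among the scores of its own list. Percentiles of different lists stand side by side below as descriptions and show no change between lists. The proximal and distal enhancers of Pou5f1, which serve the epiblast and the naive state, are known to lie upstream of the start. Region chr17:35507089-35507506 inside the gene was open in dHx Middle and WT Middle alone. Pou5f1 has several processed pseudogenes in the mouse, so reads inside the gene may be shared with copies, and this region is uncertain.

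Nanog, the homeobox factor of the pluripotent state, had 7 peaks in dHx Negative, 1 in dHx Middle and 5 in dHx High, and 5 in WT Negative, 2 in WT Middle and 6 in WT High. Both Middle lists thus had the fewest. The fitted background was 0.786 in dHx Middle and 1.497 in WT Middle, and its part in these counts was not tested. Region chr6:122702259-122703132, 4.79 kb upstream, was open in all 6 lists. It stood at percentile 93.8 in dHx Negative, 69.0 in dHx Middle and 56.8 in dHx High, and at 91.0 in WT Negative, 58.6 in WT Middle and 60.9 in WT High. An enhancer a few kilobases upstream of Nanog is known from embryonic stem cells. The promoter region chr6:122706955-122707606, which contains the window printed above, and chr6:122703517-122704166, 3.65 kb upstream, were open in both Negative and both High lists and in neither Middle list. This pattern was found in 2 of the 65 regions (3.08%), both at Nanog, and in 0.766% of all assigned regions.

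Downstream of Nanog, chr6:122715513-122716323 was open in every list except dHx Middle. It stood at percentile 92.3 in dHx Negative and 42.2 in dHx High, and at 89.4 in WT Negative, 4.49 in WT Middle and 30.2 in WT High. The far region chr6:122669517-122670557, 37.5 kb upstream, was open in dHx Negative, dHx High and WT Negative. The remaining 3 Nanog regions were open in 1 list each, 2 of them in WT High.

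Pou3f1 (Oct6), a POU factor of the late epiblast and anterior neural ectoderm, had 6, 4 and 2 peaks in dHx Negative, Middle and High, and 6, 2 and 4 in WT Negative, Middle and High. Its gene (chr4:124657646-124660655) was covered at its lower end by chr4:124656833-124658014, which was open in all 6 lists. Regions chr4:124575775-124576624, 81.4 kb away, and chr4:124652975-124653427, 4.45 kb away, were open in both Negative lists and in neither High list, the nearer one also in dHx Middle. Region chr4:124667660-124668412, 7.38 kb on the other side, stood at percentile 75.0 in dHx Negative, 18.0 in WT High and 90.3 in WT Negative, and had no peak in the other lists. Of the other 4 regions, chr4:124614141-124614524, 43.3 kb away, was open in every list except WT Middle, chr4:124644995-124645453 in both Middle lists and dHx Negative, and 2 in a single list. All regions below the gene's upper end overlap the long non-coding RNA gene Gm2164.

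Utf1, a chromatin-bound factor of epiblast and embryonic stem cells, had 6, 3 and 2 peaks in dHx Negative, Middle and High, and 4, 4 and 2 in WT Negative, Middle and High. The region over its start, chr7:139943446-139944528, was open in dHx Negative, dHx Middle, WT Negative and WT Middle and in neither High list. It stood at percentile 69.8 in dHx Negative and 54.2 in dHx Middle, and at 69.3 in WT Negative and 41.6 in WT Middle. Region chr7:139945526-139946144, 0.723 kb past the gene, was open in both Negative lists alone. The 2 High peaks of either genotype lay in chr7:139949553-139951374 and chr7:139951702-139952539, which overlap the non-coding RNA gene Gm16201 and were open in all 6 lists. At this gene, then, the proximal regions were in neither High list while the distal pair was open in both. The remaining region, 10.2 kb past the gene, was open in dHx Negative alone.

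Dnmt3b, the de novo DNA methyltransferase of the epiblast, held the single region of the 65 that followed genotype (1.54%). Region chr2:153642590-153643479, 6.38 kb upstream, was open in all 3 WT lists and in no dHx list. It stood at percentile 39.8 in WT Negative, 24.4 in WT Middle and 55.5 in WT High. Over all assigned regions, 2.87% were open in 2 or 3 WT lists and no dHx list. The part of list depth in the absence of this region from the dHx lists was not tested. The reverse pattern, open in 2 or 3 dHx lists and no WT list, was found in 0 of 65 regions against 2.45% of all. Taken as 3 counts divided by the 65 regions, a count of 0 allows a share of up to about 4.62%. This limit is not a Clopper-Pearson bound. The promoter region chr2:153648811-153649893 was open in all lists but WT Middle, where the nearest peak was chr2:153650071-153650392, inside the gene.

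Also inside Dnmt3b, chr2:153651596-153651989 was open in the Negative and Middle lists of both genotypes and in neither High list. In contrast, chr2:153660573-153660956 was open in dHx Negative, dHx High and WT High, at percentile 50.3 in dHx High, 4.74 in dHx Negative and 60.9 in WT High. Regions chr2:153710828-153711063 and chr2:153712867-153713417, open in 1 dHx list each, overlap Dnmt3b-ps1, a copy of the gene, and are uncertain. The other 2 regions lay past the gene, chr2:153689043-153689462 in dHx Middle and WT High and chr2:153692151-153692428 in dHx Negative.

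**Figure D3:**
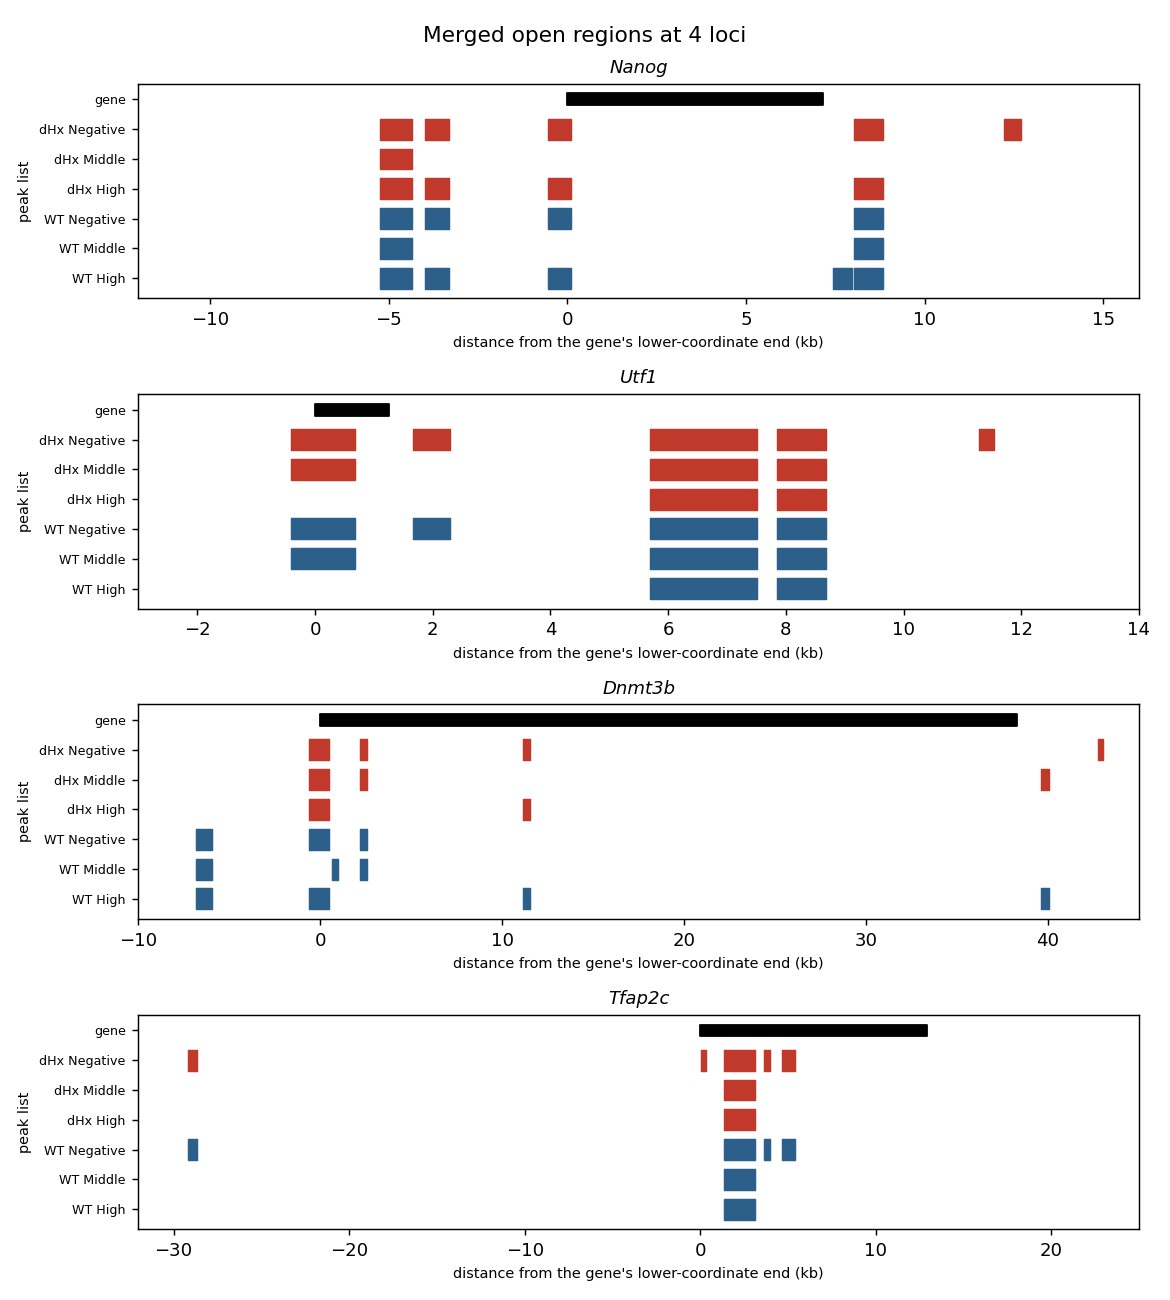
Merged open regions (boxes, at the joined extent of the region) of the 6 peak lists at Nanog, Utf1, Dnmt3b and Tfap2c, against the distance in kb from the lower-coordinate end of the gene (black bar), dHx in red above WT in blue, with the farthest regions of Nanog, Dnmt3b and Tfap2c outside the drawn range. The box 6.38 kb left of Dnmt3b appears in the WT rows alone, the box over the Utf1 start is missing from both High rows, and the boxes at 3.788 and 5.043 kb inside Tfap2c appear in both Negative rows alone.

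Sall4, a zinc finger factor that works with OCT4 and NANOG and remains active in several early lineages, was the most evenly open locus. It had 8, 6 and 6 peaks in dHx Negative, Middle and High, and 6, 8 and 6 in WT Negative, Middle and High. Of its 9 regions 5 were open in all 6 lists. They included chr2:168761986-168763292 and chr2:168765092-168766031 inside the gene, chr2:168766326-168767540 over its upper end, and chr2:168807483-168808218, 40.6 kb away. The fifth, chr2:168790849-168791713, lay 24.1 kb away and ranked high in each list, at percentile 92.3 in dHx Negative, 97.2 in dHx Middle and 89.2 in dHx High, and 88.3 in WT Negative, 97.7 in WT Middle and 93.4 in WT High. Region chr2:168747347-168748251, 81 bp outside the lower end of the gene, was open in the Negative and Middle lists of both genotypes and in neither High list, at percentile 94.7 in dHx Middle. Region chr2:168779932-168780770, 13.2 kb away, was open in dHx High, WT Middle and WT High. The last 2 regions, 43.0 and 53.4 kb away, were open in dHx Negative, the farther one also in WT Middle.

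Esrrb, an orphan nuclear receptor of naive pluripotency and of extraembryonic ectoderm, had 2, 5 and 4 peaks in dHx Negative, Middle and High, and 3, 5 and 5 in WT Negative, Middle and High. None of its 15 regions was open in all 6 lists and 11 were open in a single list. The first annotated start (chr12:86360867-86361166) had no peak in any list. A second start (chr12:86421394-86421693) lay in chr12:86421299-86421738, which was open in dHx Negative, dHx Middle and WT Negative. On the High side, chr12:86562662-86563330 and chr12:86567639-86568089, 41.4 and 46.2 kb past the gene, were open in dHx High and WT High and also in dHx Middle. The farther of these stood at percentile 71.0 in dHx High and at 65.6 in WT High. Region chr12:86525160-86525913, 3.91 kb past the gene, stood at percentile 93.4 in WT High and 47.9 in WT Negative, with a peak also in WT Middle and dHx Negative and none in dHx High.

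Tfap2c, an AP-2 factor of trophoblast, germ cells and surface ectoderm, had 10, 2 and 2 peaks in dHx Negative, Middle and High, and 6, 2 and 2 in WT Negative, Middle and High. The Middle and High lists shared the same 2 regions, chr2:172547042-172548794 inside the gene and chr2:172613697-172614337, 55.4 kb away, which were open in all 6 lists. Open in both Negative lists and no other were chr2:172516499-172516993 (28.9 kb away), chr2:172549291-172549641 and chr2:172550355-172551087 inside the gene, and chr2:172577014-172577678 (18.7 kb away). The last stood at percentile 80.5 in dHx Negative and 72.9 in WT Negative. The remaining 3 regions were open in dHx Negative alone, at percentile 14.9 to 43.0.

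The genotypes were then compared list by list at each RFP level. At Negative RFP, 12 of 45 dHx peaks (26.7%, Clopper-Pearson 95% interval 14.6 to 41.9, for counting error with peaks taken as independent) had no WT peak, against 43.3% of all assigned dHx Negative peaks. In the other direction 3 of 34 WT peaks (8.82%, 1.86 to 23.7) had no dHx peak, against a background of 27.8%. At Middle RFP it was 10 of 26 dHx peaks (38.5%, 20.2 to 59.4, background 30.1%) and 11 of 27 WT peaks (40.7%, 22.4 to 61.2, background 42.4%). At High RFP it was 3 of 23 dHx peaks (13.0%, 2.78 to 33.6, background 30.0%) and 9 of 29 WT peaks (31.0%, 15.3 to 50.8, background 40.9%). The share at the 8 loci was thus near the background at Middle RFP. At Negative RFP both intervals ended below it, and at High RFP both intervals contained it. This reading of the Negative lists did not hold with all lists cut to the length of the shortest, 37129 peaks. The share without a peak in the other genotype was then 17.6% for dHx Negative (6.76 to 34.5, background 33.7%) and 20.6% for WT Negative (8.7 to 37.9, background 32.9%), so both intervals contained the background. With lists of that length it was 17.4% for dHx High (background 35.2%) and 17.4% for WT High (background 33.4%), with the same interval of 4.95 to 38.8, and 40.0% for both dHx Middle (background 34.9%) and WT Middle (background 34.0%). When the overlap had to cover 0.5 of the shorter peak, the share was 33.3% for dHx Negative (20.0 to 49.0) and 14.7% for WT Negative (4.95 to 31.1). With every peak within 100 kb of a member counted it was 34.9% (26.0 to 44.6) and 14.8% (7.9 to 24.4). The backgrounds of these settings were not computed, and those of the main setting were 43.3% for dHx Negative and 27.8% for WT Negative.

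Peaks missing from the other genotype had a lower median percentile than shared ones in all 6 lists. In WT High the 9 without a dHx peak had a median percentile of 18.0 and the shared ones 60.9, and in dHx Negative these were 30.5 and 66.8. With each list reduced to its top 20000 scores and the compared list left complete, 0 of 18 dHx Negative peaks (interval 0 to 18.5%, background 15.0%) and 0 of 13 dHx High peaks (0 to 24.7%, background 12.2%) had no WT peak. By the same measure 1 of 19 WT Negative peaks (5.26%, background 11.2%) and 1 of 12 WT High peaks (8.33%, background 16.8%) had no dHx peak. In this setting the intervals of both Negative comparisons contained the background, that of WT Negative running from 0.133% to 26.0%.

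Between RFP levels, the dHx Negative list lacked 5 of 23 dHx High peaks (21.7%, 7.46 to 43.7), against 37.7% of all, while the dHx High list lacked 25 of the 45 Negative ones (55.6%, 40.0 to 70.4), against 52.3%. In WT, 10 of 29 High peaks (34.5%, 17.9 to 54.3, background 47.4%) and 15 of 34 Negative peaks (44.1%, 27.2 to 62.1, background 39.7%) had no peak in the other list. All 4 intervals contained the background. With lists cut to 37129 peaks the share of dHx High peaks missing from dHx Negative was 34.8% (background 44.1%), and that of dHx Negative peaks missing from dHx High was 52.9% (background 43.0%). In WT the cut lists gave 26.1% of High peaks (background 42.6%) and 50.0% of Negative peaks (background 42.5%). In dHx 7 of the 8 genes had more Negative peaks without a High peak than the reverse, and Esrrb went the other way. In WT 4 genes had more Negative peaks without a High peak, 3 had more of the reverse and Sall4 had equal numbers. Among the 40 other pluripotency genes described below, dHx had 19 with more Negative, 11 with more High and 10 with equal numbers. In WT these were 12, 18 and 10. The same count over all genes was not made, and dHx Negative was a longer list than dHx High. In both genotypes the fitted background was lower in High than in Negative, and its part in these shares was not tested.

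**Figure D4:**
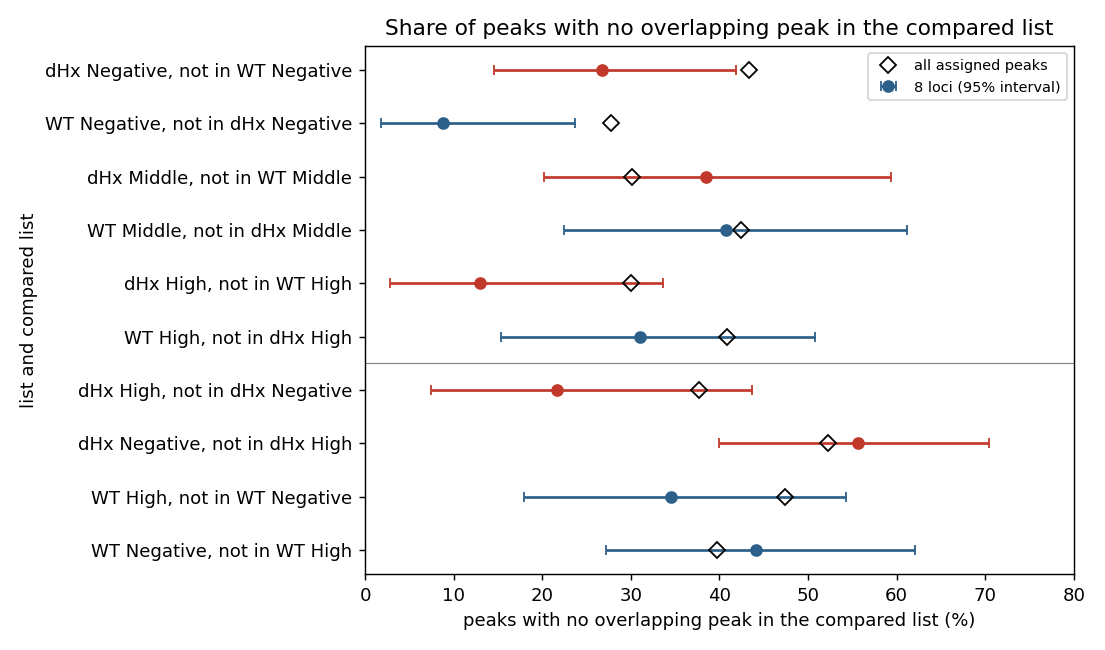
Share of peaks missing from the compared list (x axis, percent) at the 8 loci (filled points with Clopper-Pearson 95% intervals, dHx red and WT blue) and among all assigned peaks (open diamonds), with genotype comparisons above the line and RFP comparisons below it. The diamonds of both Negative genotype comparisons, at 43.3% and 27.8%, lie to the right of their intervals.

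Other pluripotency genes were taken from a list of 40, all found in RefSeq, with 301 regions. They held 148 peaks in dHx Negative, 153 in dHx Middle and 132 in dHx High, and 124 in WT Negative, 162 in WT Middle and 150 in WT High. In that list 17 regions (5.65%) were open in both Negative lists and neither High list, against 29 (9.63%) with the opposite pattern. The 2 patterns made up 5.11% and 5.35% of all assigned regions. The Negative lean of the 8 loci was thus not seen across that list. Of the 29 regions, Cdh1 and Tcf7l1 gave 5 each and Prdm1 gave 4. Over the 3 RFP levels 16 of the 40 genes had more dHx peaks without a WT peak, 19 had more of the reverse and 5 had equal numbers. Sox2, the partner of OCT4, had 2, 3 and 4 peaks in dHx Negative, Middle and High, and 2, 0 and 0 in WT Negative, Middle and High. Dppa3 (Stella), of germ cells, had 4, 2 and 2 in dHx and 3, 4 and 5 in WT, and Jarid2, a Polycomb partner, 5, 6 and 6 in dHx and 8, 5 and 8 in WT, in the order Negative, Middle and High.

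By peak numbers over the 6 lists, the gene of that list most like each member was sought as the smallest sum of absolute differences. Nr0b1 was nearest to Pou5f1 with a sum of 1, Fgf5 to Esrrb with 3 and Dppa3 to Dnmt3b with 5. Dnmt3a and Myc were nearest to Sall4, and Etv4 and Mycn to Utf1, each with 5, and Tet1 was nearest to Pou3f1 with 7. Nanog and Tfap2c had no close match in that list, since Otx2 differed from Nanog by 11 and Lefty2 and Mycn from Tfap2c by 12. Genes outside the list were not searched, and closer numbers were found among the loci of other tissues described below. Gsc had 7, 3 and 4 peaks in dHx Negative, Middle and High and 7, 3 and 6 in WT, closer to Nanog than Otx2. Tfap2a had 8, 2 and 6 in dHx and 8, 2 and 2 in WT, closer to Tfap2c than Lefty2 and Mycn.

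Lists of loci of other tissues were read beside the Negative lean. Near 7 genes of extraembryonic ectoderm and trophoblast there were 29 peaks in dHx High against 47 in dHx Negative, and 22 in WT High against 42 in WT Negative, with 9 of 78 regions (11.5%) open in both Negative lists and neither High list, beside the 5.11% of all assigned regions. The opposite pattern, at 5.35% of all assigned regions, was seen in 4 of these 78 (5.13%). All 7 genes had a peak in dHx Negative and 6 in WT Negative, where Elf5 had none. Near 6 anterior neural plate genes it was 20 peaks in dHx High against 25 in dHx Negative and 24 in WT High against 27 in WT Negative. Of their 52 regions, 7 (13.5%) were open in both Negative lists and neither High list, and 2 (3.85%) showed the opposite pattern. The 7 lay at Zic1 (3), Sox1 (2) and Pax6 (2). Six3 and Hesx1 went the other way, with more High than Negative peaks in both genotypes. Mesoderm genes (8) had 13 peaks in dHx High against 22 in dHx Negative and 21 in WT High against 18 in WT Negative, with 1 of 48 regions (2.08%) open in both Negative lists and neither High list and 2 (4.17%) of the opposite pattern. Germ cell genes (6) had 22 peaks in dHx High against 19 in dHx Negative and 22 in WT High against 13 in WT Negative. Of their 40 regions, 1 (2.5%) was open in both Negative lists and neither High list and 6 (15.0%) in both High lists and neither Negative list. Prdm1 alone gave 4 of the 6, and Prdm1, Prdm14 and Dppa3 were also among the other pluripotency genes above. Endoderm and node genes (10) had 49 peaks in dHx High against 39 in dHx Negative and 56 in WT High against 28 in WT Negative, with 3 of 99 regions (3.03%) of the Negative pattern and 14 (14.1%) of the High pattern. The part of these other tissues in the result at the 8 loci was not tested.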

How the data were processed

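ATAC-seq was measured in 12 samples of 6 groups. The deposited files are 1 peak list per group on mm10. STAR 2.5.2a and MACS2 were used, per the submitters' processing notes, with roles and settings not stated. The deposited peak names hold the word Pooled. The score deposited by the authors was read as a −log10 p-value or q-value from its values, since the column has no name, and it was used to rank peaks within a list and to fit the background to the 45 lowest distinct scores. Lines with the same start and end were merged. Gene positions and promoter windows came from RefSeq GRCm38.p6. The gene table gives no exons, and whether a region is exonic or intronic was not analysed here. For midpoints inside several genes the gene with the closer end was taken.

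Peaks counted as shared from an overlap of 1 bp, computed with numpy 2.4.6, pandas 2.3.3 and scipy 1.17.1, and the functions were tested on simulated data. No test was run. Intervals are Clopper-Pearson at 95% and cover counting error alone. The members and gene lists were chosen with earlier results of these data known. Named were all members, Foxa2, the regions at or within 1 kb of a member, those open in all lists or following genotype or RFP level, and the 4 genes of the wider list with the largest net number of peaks in 1 genotype. Of these 4, 1 is not reported here. Single-list regions inside Esrrb and Tfap2c and within 1 kb of Nanog were given as counts.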

Additional observations from a re-analysis of the deposited data

Results flagged for a closer look

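The number of peaks at the 8 loci differed between genotypes in opposite directions across RFP levels, in an untested comparison of 1 list with 1 list. It was 11 peaks higher in dHx than in WT at Negative RFP, and dHx minus WT was -1 at Middle and -6 at High RFP. The whole lists differed in the same directions, with 50424 peaks in dHx against 39569 in WT at Negative, 39121 in dHx against 48761 in WT at Middle, and 37129 in dHx against 45689 in WT at High RFP. The fitted background was also higher in dHx than in WT at Negative RFP (1.57 against 1.08) and lower at Middle (0.786 against 1.497) and High RFP (0.476 against 0.880), and the part of list length and background in the difference was not tested. At Dnmt3b dHx minus WT was 2 at Negative, 1 at Middle and -2 at High RFP, and at Nanog it was 2, -1 and -1.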

How the results depend on the processing

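Of 75 values recomputed under 7 alternatives, 67 stayed within the interval of the main value, or within 1.5 times it for a count. The other 8 moved. With only the strongest 20000 peaks looked up, the share without a peak in the other genotype was 0% for dHx Negative (main 26.7%) and 0% for dHx High (13.0%), 16.7% for dHx Middle (38.5%), 8.33% for WT High (31.0%) and 20.0% for WT Middle (40.7%), and the share of dHx Negative peaks without a dHx High peak was 33.3% (55.6%). The same shares over all assigned peaks were 15.0% for dHx Negative, 12.2% for dHx High and 11.3% for dHx Middle. They were 16.8% for WT High, 17.5% for WT Middle and 26.3% for dHx Negative without dHx High. Both Middle shares and the last one were higher at the 8 loci, but on few peaks. They came from 2 of 12 dHx Middle, 2 of 10 WT Middle and 6 of 18 dHx Negative peaks. Their intervals, 2.09 to 48.4, 2.52 to 55.6 and 13.3 to 59.0, contained the shares over all assigned peaks. With every peak within 100 kb of a member counted, 19 of 172 regions were open in both Negative lists and neither High list (main 12 of 65) and 8 showed the opposite pattern (3 of 65), and this alternative brings in regions of neighbouring genes. With lists cut to 37129 peaks each these 2 counts were 12 and 4 of 56. The shares of these 2 region patterns over all assigned regions were not computed in either setting, so the counts have no matching background. The intervals of both Negative genotype shares contained the background of the cut lists. The peak-share backgrounds of the cut lists were added after seeing the data. The region counts under alternatives, and the count without Tfap2c, were chosen after seeing the data. No paired analysis was possible because each deposited list pools the replicates of its group, and for the same reason no replicate could be left out. Depth limits what a missing peak shows, since dHx High had the lowest fitted background.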
